A study of Homo sapiens with 12 samples.

Results

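The let-7 family was followed across all samples of the study through the 8 probes named hsa-let-7a-5p, hsa-let-7b-5p, hsa-let-7c-5p, hsa-let-7d-5p, hsa-let-7e-5p, hsa-let-7f-5p, hsa-let-7g-5p and hsa-let-7i-5p (the species prefix is left out below), out of 798 human miRNA probes. The members were taken by probe name and not by their values, though that choice was made with earlier results of these data known. let-7 miRNAs are small RNAs that guide Argonaute proteins to messenger RNAs, pairing mainly through the seed near their 5′ end, and thereby lower the stability and translation of those messenger RNAs. Their known targets include the RAS genes, HMGA2, MYC and LIN28, and they are known for rising as cells differentiate. The RNA-binding proteins LIN28A and LIN28B block the maturation of let-7 precursors.

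The study counted miRNAs in total RNA with NanoString probes, whose barcodes are read directly with no amplification step. The RNA came from MOLM-14 and THP-1, established cell lines grown from human acute myeloid leukaemia. Each line had been transduced with a lentivirus carrying either a short hairpin RNA against MUC1 (here called silenced) or a scrambled control hairpin, and RNA was taken from 1000000 transduced cells per sample. MUC1 encodes a mucin of the cell membrane, and the study asked which miRNAs change when it is silenced. The 12 samples form 4 groups of 3, namely scrambled MOLM-14, silenced MOLM-14, scrambled THP-1 and silenced THP-1. Every group, controls included, carried a lentiviral hairpin, and the labels name neither the hairpin sequence nor separate clones. MUC1 itself is not among the miRNA probes, so its silencing has no check in these values.

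All 8 members matched 1 mature sequence in RefSeq. The sequences are shown because the members differ by so few bases that the probes must tell near-identical targets apart, with the seed (bases 2 to 8 from the 5′ end) in capitals.
let-7a-5p: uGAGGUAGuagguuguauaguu
let-7b-5p: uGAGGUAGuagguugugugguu
let-7c-5p: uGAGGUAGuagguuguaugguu
let-7d-5p: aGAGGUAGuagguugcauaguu
let-7e-5p: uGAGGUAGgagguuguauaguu
let-7f-5p: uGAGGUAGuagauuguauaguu
let-7g-5p: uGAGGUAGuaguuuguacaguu
let-7i-5p: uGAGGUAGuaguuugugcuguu
All 8 were 22 bases long and shared the same seed. Positions below count from 1 at the 5′ end, with the base of let-7a-5p first. let-7c-5p (A19G), let-7e-5p (U9G) and let-7f-5p (G12A) each differed from let-7a-5p by 1 base. let-7b-5p (A17G, A19G), let-7d-5p (U1A, U16C) and let-7g-5p (G12U, U18C) differed by 2, and let-7i-5p by 4. let-7b-5p and let-7c-5p differed from each other by 1 base, and let-7g-5p and let-7i-5p by 2. How much signal one member's probe takes from another member is not given in the sources used here, so values of single members carry that uncertainty.

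RefSeq (GRCh38.p14) lists 11 hairpin genes for the 8 members. let-7a-5p comes from 3 of them, MIRLET7A1 at chr9:94175957-94176036 (+), MIRLET7A2 at chr11:122146522-122146593 (-) and MIRLET7A3 at chr22:46112749-46112822 (+). let-7f-5p comes from MIRLET7F1 at chr9:94176347-94176433 (+) and from MIRLET7F2 at chrX:53557192-53557274 (-), which lies within the span of the protein-coding gene HUWE1. MIRLET7B at chr22:46113686-46113768 (+) begins 863 bases after the end of MIRLET7A3, and both lie within the long noncoding gene MIRLET7BHG. MIRLET7D at chr9:94178834-94178920 (+) lies with MIRLET7A1 and MIRLET7F1 in a stretch of 2964 bases within MIRLET7A1HG. MIRLET7C at chr21:16539828-16539911 (+) lies within MIR99AHG, and MIRLET7E at chr19:51692786-51692864 (+) within the span of SPACA6. MIRLET7G at chr3:52268278-52268361 (-) lies within the span of WDR82, and MIRLET7I at chr12:62603686-62603769 (+) within MIRLET7IHG. A mature let-7a-5p or let-7f-5p count therefore sums over several loci.

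Library totals ranged from 9002 to 20418 counts. A set of 630 probes stayed above 1 and under 30 counts in all 12 samples and served as background, with library means from 10.2 to 15.1 counts and library 95th percentiles from 17 to 24. Probes with 30 counts or more numbered 14 to 32 per library in silenced THP-1 and 54 to 65 in scrambled THP-1. In silenced MOLM-14 they numbered 33, 88 and 28, and the sample with 88, sample 2, was unlike its group: chi-square divided by its degrees of freedom, over the tested probes, was 19.2 and 15.9 for its pairs and 2.84 for the pair without it. The value was 1.23 for scrambled MOLM-14 samples 2 and 3, against 4.35 and 4.41 for the other pairs of that group. These 2 samples differed by no more than sampling noise over the tested probes, though over all probes above 1 in some sample the value was 1.1 (chi-square p = 0.023). They entered means and SDs as their average, which was counted as 1 sample, hence n = 2 for that group. The edgeR fits took all 12 samples as separate unless averaging is stated. The 3 silenced THP-1 samples were also that close over the tested probes (0.944 to 1.06) but were kept apart, since no pair of the group differed more, so their p-values may measure a technical spread. Among 5 blood cell markers miR-155-5p reached up to 94 counts and miR-181a-5p up to 494. miR-142-3p lay between 10 and 23 in every library and so was itself 1 of the background probes. Their summed counts were 231 to 251 in scrambled and 72 to 105 in silenced THP-1, 344 to 565 in scrambled and 510 to 622 in silenced MOLM-14. In MOLM-14 only miR-181a-5p was higher in silenced samples (404 to 494, against 217 to 379). There miR-155-5p (41 to 59, against 60 to 94) and miR-146a-5p (20 to 24, against 25 to 30) were lower, and miR-223-3p and miR-142-3p overlapped. None of 5 epithelial, 2 erythroid, 2 muscle or 2 neural marker probes reached 30 counts, and the liver marker miR-122-5p was at 1 in 11 libraries and at 52 in silenced MOLM-14 sample 3. The labels do not say whether the samples of a group were separate cultures, and p-values speak only of the spread between the samples at hand. These are bulk samples, in which fewer cells carrying a miRNA and less of it per cell cannot be told apart.

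let-7b-5p carried most of the let-7 signal and was the probe with the highest mean count of all 798 in each of the 4 groups. Its deposited counts were 929, 1426 and 1529 in scrambled MOLM-14 and 467, 802 and 586 in silenced MOLM-14. They were 3409, 4860 and 3259 in scrambled THP-1 and 239, 203 and 150 in silenced THP-1. The groups did not overlap: every scrambled THP-1 sample was above every scrambled MOLM-14 sample, these above every silenced MOLM-14 sample, and these above every silenced THP-1 sample. All neighbours in that order passed the test. Without the count filter the call was lost between the scrambled lines (1.56, edgeR adjusted p = 0.053) and between the hairpins in MOLM-14 (-0.86, edgeR adjusted p = 0.364). Scrambled THP-1 was higher than scrambled MOLM-14 by 1.42 ± 0.15 on the log2 scale (SE, edgeR quasi-likelihood adjusted p = 2.13e-05). In MOLM-14 the silenced samples lay below the scrambled ones by -0.81 ± 0.14 (edgeR adjusted p = 0.00215), and silenced THP-1 lay below silenced MOLM-14 by -1.29 ± 0.15 (edgeR adjusted p = 3.1e-05). Within THP-1 the hairpin effect was -3.52 ± 0.16, an 11.5-fold fall (edgeR adjusted p = 5.59e-09). The line with the higher let-7b-5p level under the scrambled hairpin thus had the lower level under the MUC1 hairpin.

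**Figure D1:**
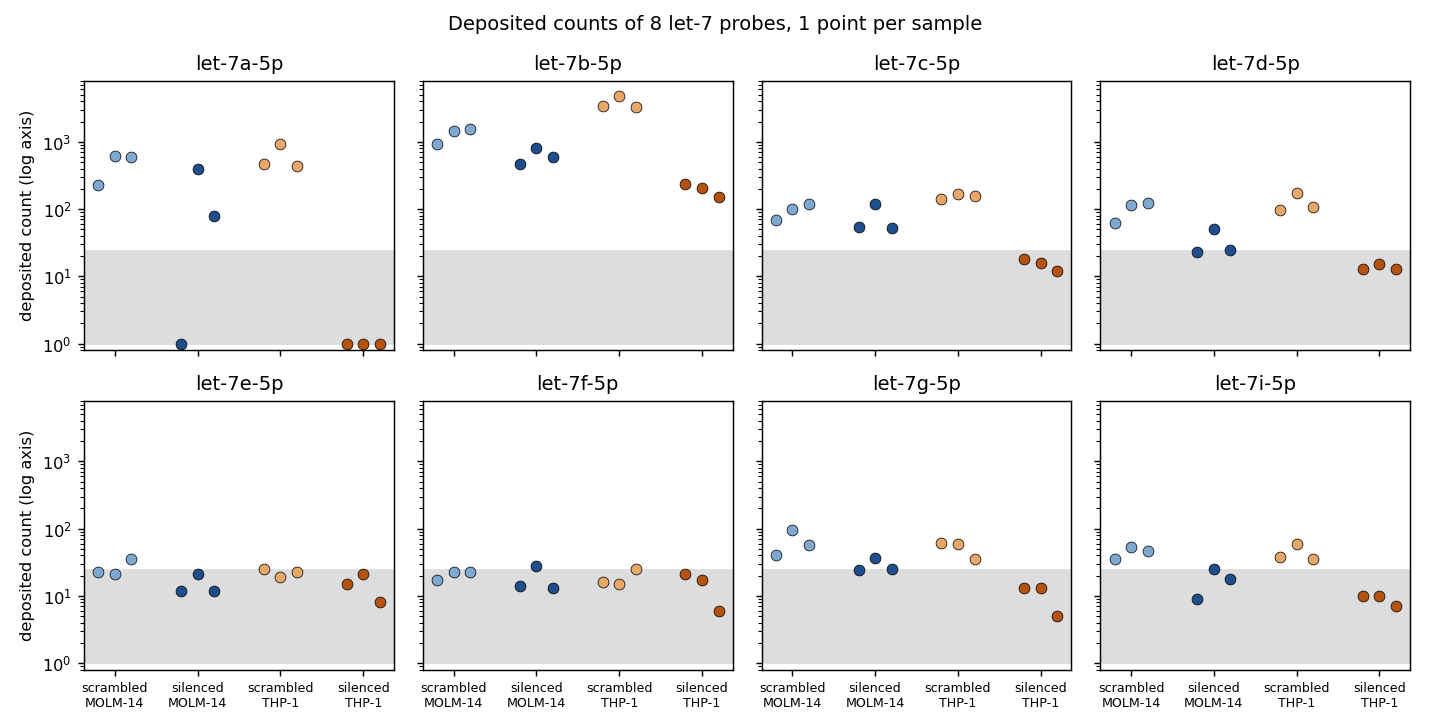
Deposited counts (vertical log axis) of the 8 let-7 probes in the 4 groups, 1 point per sample, with samples 1 to 3 from left to right in each group. The grey band reaches from 1 to 24 counts, the highest 95th percentile of the background probes in any library, and silenced THP-1 lies inside it for 7 of the 8 probes, with let-7b-5p alone above.

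The size of the let-7b-5p change in THP-1 depended on the scaling and on the filter. TMM scaling, used for the values above, assumes that most tested probes do not change. The ratio of the deposited mean counts was 19.5, before any scaling. Scaling on the 630 background probes gave -4.12 ± 0.29 on the log2 scale (edgeR adjusted p = 2.74e-07) and moved the median of the 67 tested probes in THP-1 from -0.03 to -0.61. TMM factors computed without any let-7 or miR-98 probe gave -3.62. Smaller falls came from testing only probes with 30 counts in 6 samples (-2.90), from subtracting each library's median count (-3.17) and from leaving out scrambled THP-1 sample 2 (-3.13). The call held in all 26 alternatives. In MOLM-14 background scaling gave -0.84 and the factors without let-7 gave -0.99.

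The summed counts of the 8 probes made up 12.8 ± 2.79% of all counts in scrambled MOLM-14 (SD, n = 2) and 6.87 ± 1.91% in silenced MOLM-14 (n = 3). In THP-1 the let-7 share was 26.0 ± 4.22% in scrambled and 2.48 ± 0.202% in silenced samples (SD, n = 3 each). Mean library totals in THP-1 differed by 7502 counts between the hairpins, and let-7 counts made up 4592 of these, or 61.2%. Without let-7 counts the THP-1 totals were 13682 ± 710 in scrambled and 10772 ± 1787 in silenced samples (SD, n = 3 each). The shares of members in the let-7 sum, background counts included, differed between groups too. let-7b-5p made up 62.9 ± 4.76% of it in scrambled MOLM-14 (SD, n = 2), 68.0 ± 12.1% in silenced MOLM-14, 79.2 ± 1.43% in scrambled THP-1 and 71.8 ± 2.9% in silenced THP-1 (n = 3 each). let-7a-5p was second in the sum in scrambled MOLM-14 (20.2 ± 5.62%) and in scrambled THP-1 (12.1 ± 2.15%). In silenced THP-1 the remaining share was spread over probes at background level, so shares of members other than let-7b-5p there describe background. Those background counts are also part of the sum that the let-7b-5p share is taken from. Its lower share in silenced than in scrambled THP-1 is therefore not read as a change between members.

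**Figure D2:**
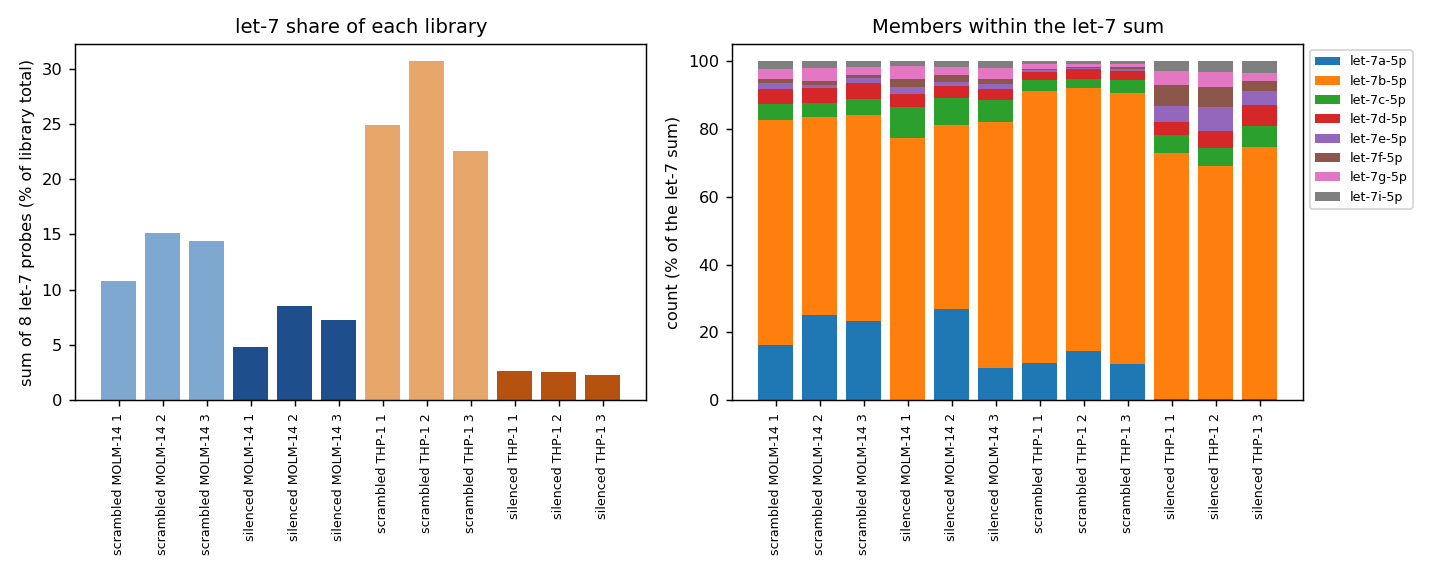
Left, the sum of the 8 let-7 probes as a percentage of each library's total count, 1 bar per sample, with scrambled THP-1 highest and silenced THP-1 lowest. Right, the percentage of that sum held by each member in each sample, with let-7b-5p the largest part in all 12 samples and let-7a-5p at 1 count in silenced MOLM-14 sample 1 and in the 3 silenced THP-1 samples.

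The comparison of hairpins in MOLM-14 asked which members changed with MUC1 silencing in that line. The test took in the 67 probes that reached 30 counts in 3 samples or more, of which 6 were let-7 members. Of these 6, 3 fell (let-7b-5p, let-7d-5p and let-7i-5p) and none rose (edgeR quasi-likelihood, adjusted p under 0.05). With scrambled samples 2 and 3 averaged, these 3 still passed, with edgeR adjusted p = 0.0138, 0.0133 and 0.0302. Over the 67 probes 8.96% were called lower and 7.46% higher. Counts alone, with no scaling, put every silenced sample below every scrambled one for 4 of the 8 members (these 3 and let-7g-5p). The same held for 10% of the 798 probes and for 17.9% of the 67 tested probes. The median log2 fold change was -1.01 over the 6 members and -0.03 over the 67 probes. let-7i-5p reached 30 counts only in scrambled samples, and let-7d-5p and let-7g-5p in 1 silenced sample each besides, so the filter itself favoured members that were higher there. Without the filter, over 798 probes, the 8 members had a median of -0.91 against -0.01 for all probes, and 1 of the 8, let-7d-5p, passed, with 0.627% of probes called lower, while let-7b-5p (edgeR adjusted p = 0.364) and let-7i-5p (edgeR adjusted p = 0.0596) did not.

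let-7d-5p, encoded beside let-7a-1 and let-7f-1, had 63, 114 and 121 counts in scrambled and 23, 51 and 25 in silenced MOLM-14. The groups did not overlap, with silenced counts of 23 and 25 inside the background range, which reached 29, and 51 above it. All 3 exceeded the 95th percentile of background in their own library. The log2 fold change was -1.34 ± 0.25 (SE, edgeR adjusted p = 0.00215), and the call held in all 26 alternatives. let-7i-5p had 35, 54 and 47 counts in scrambled and 9, 25 and 18 in silenced samples. All silenced counts lay within the background range, 2 of the 3 above the 95th percentile of their own library. The size of the let-7i-5p fall (-1.14 ± 0.26, edgeR adjusted p = 0.00817) is therefore uncertain. let-7g-5p had 40, 94 and 57 counts in scrambled and 24, 37 and 25 in silenced samples, again without overlap. It did not pass (-0.89 ± 0.30, edgeR adjusted p = 0.0608), but did in 5 of 26 alternatives, and in 0 of 12 with 1 library left out. Without scrambled sample 2 the value was -0.56 (edgeR adjusted p = 0.263). let-7g-5p passed with robust estimation of the spread (edgeR adjusted p = 0.0339, with 10.4% of the 67 probes then called lower). Scaling that left out let-7 probes (adjusted p = 0.034, 14.9% called lower) and median subtraction (adjusted p = 0.0474, 10.4%) also called it. So did the stricter filter (adjusted p = 0.0392, with 16.7% of 42 probes called lower).

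let-7c-5p, which differs from let-7b-5p by 1 base, had 68, 101 and 120 counts in scrambled and 55, 117 and 52 in silenced MOLM-14. The groups overlapped, and the log2 fold change was -0.14 ± 0.20 (edgeR adjusted p = 0.732, 95% interval -0.58 to 0.30). The sample that made them overlap was silenced sample 2, and without it the value was -0.44 (edgeR adjusted p = 0.0302). let-7a-5p had 228, 611 and 590 counts in scrambled and 1, 395 and 78 in silenced samples. The counts overlapped, and it did not pass (edgeR adjusted p = 0.335). Since silenced sample 1 was at 1, the smallest value in the table, the fitted size is not read as a fold. Without that sample the value was -0.85 (edgeR adjusted p = 0.224), and without silenced sample 2, which leaves counts of 1 and 78, the test passed (edgeR adjusted p = 0.00737). Without silenced sample 2, 5 of the 6 members passed, and the share of the 67 probes called lower was 14.9%.

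let-7e-5p and let-7f-5p did not reach the filter, with let-7e-5p at most at 35 counts in any sample and let-7f-5p at most at 28. In MOLM-14 let-7e-5p had 23, 21 and 35 counts in scrambled and 12, 21 and 12 in silenced samples. In the fit without a filter its log2 fold change was -0.62 (95% interval -1.25 to 0.01) and that of let-7f-5p -0.02 (-0.69 to 0.66). In THP-1 the values were -0.40 (-1.05 to 0.25) and -0.15 (-0.86 to 0.56). Each exceeded its library's 95th percentile of background in 3 of 12 libraries, and no change was detectable at this depth. let-7f-5p, under 30 counts in every sample, was itself 1 of the 630 background probes.

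In THP-1 all 6 tested members fell (edgeR quasi-likelihood), where 23.9% of the 67 probes were called lower, among them 10 of the other 61 probes (16.4%). The median log2 fold change was -2.49 over the 6 members, -2.40 without let-7a-5p, and -0.03 over the 67 probes. Under background scaling again all 6 members fell, with a median of -3.08, but 44.8% of the 67 probes were then called lower, and the split over all tested probes went from 10 higher and 16 lower to 2 higher and 30 lower. In silenced THP-1 let-7b-5p alone among the members reached 30 counts, so the other tested members met the filter only through samples of other groups. The filter thus favoured members that were higher outside silenced THP-1. Without the filter 6 of the 8 members fell, against 2.26% of 798 probes. The median was then -2.54 over the 8 members and 0.02 over all probes.

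Counts of scrambled and silenced THP-1 did not overlap for 6 of the 8 members, the 6 tested ones. Silenced counts were likewise the lower ones for 13.9% of the 798 probes and for 52.2% of the 67 tested probes. Besides let-7b-5p and let-7a-5p, each member that fell in THP-1 went down to the level of background probes. let-7c-5p went from 141, 170 and 157 to 18, 16 and 12 counts, and let-7d-5p from 97, 173 and 108 to 13, 15 and 13. let-7g-5p went from 61, 60 and 35 to 13, 13 and 5, and let-7i-5p from 38, 59 and 36 to 10, 10 and 7. None of these silenced counts exceeded the 95th percentile of background in its library. Log2 fold changes were -2.58 ± 0.22 for let-7c-5p and -2.40 ± 0.27 for let-7d-5p. They were -1.58 ± 0.34 for let-7g-5p and -1.52 ± 0.29 for let-7i-5p, with edgeR adjusted p-values from 1.94e-06 to 0.00256 for the 4. The sizes moved both ways with the setting while the calls held: testing only probes with 30 counts in 6 samples gave -1.96, -1.79, -0.96 and -0.91 for let-7c-5p, let-7d-5p, let-7g-5p and let-7i-5p, and median subtraction gave -4.36, -4.49, -3.95 and -3.58. Counts at background give no measure of what remained, so these sizes are limited by the scrambled level, and the order of the falls among the 4 follows the order of their scrambled counts. Fewer probes at 30 counts or more and lower blood cell marker sums moved with this group, and their part in the let-7 falls was not tested.

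In scrambled THP-1 let-7a-5p had 471, 913 and 434 counts, the second highest mean of all probes, and in silenced THP-1 it was listed at 1 in all 3 samples. The value of 1 is the smallest in the table and lies below the background of other probes, so no fold is given. The test passed (edgeR adjusted p = 0.00076), but not when the 3 silenced samples were averaged into 1 (edgeR adjusted p = 0.053). Only 5 of 798 probes were at 1 in some sample and at 30 or more in another, namely let-7a-5p, miR-122-5p, miR-1246, miR-3065-5p and miR-548aa/miR-548t-3p, and 15 probes were at 1 in all 12 samples. How values of 1 arose is not given in the sources used here.

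**Figure D3:**
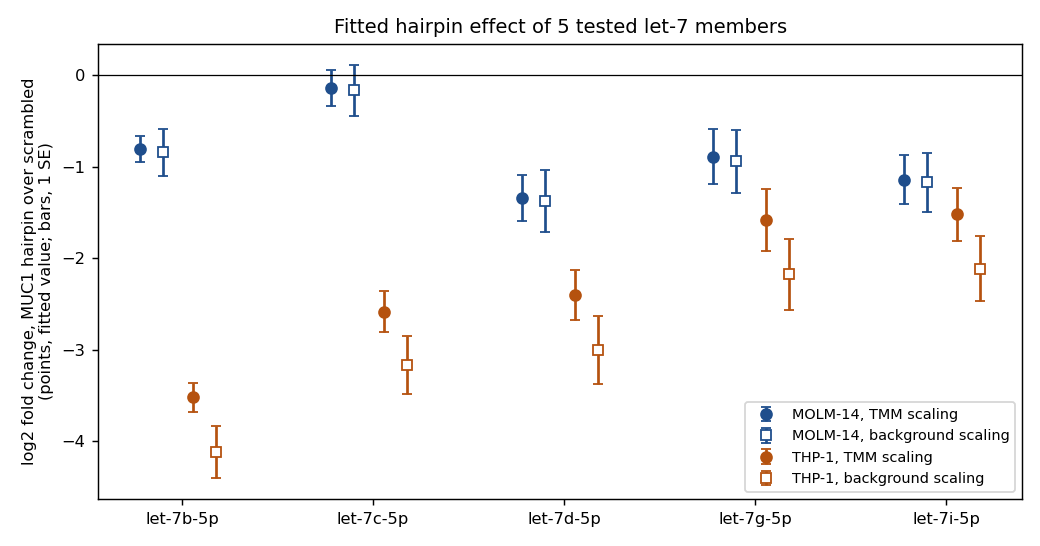
Fitted log2 fold change of the MUC1 hairpin over the scrambled hairpin (vertical axis, bars of 1 SE) for 5 tested members in MOLM-14 and THP-1, under TMM scaling (filled circles) and background scaling (open squares). let-7a-5p, listed at 1 in 4 silenced samples, is left out. In THP-1 all 5 values lie below those in MOLM-14, and background scaling moves the THP-1 values further down.

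The difference between the lines' hairpin effects was tested directly, as the effect in THP-1 minus that in MOLM-14. It passed for 3 of the 6 tested members, all lower in THP-1, against 17.9% of the 67 probes called lower. let-7b-5p differed by -2.71 ± 0.21 (SE, edgeR adjusted p = 1.86e-06) and let-7c-5p by -2.44 ± 0.30 (edgeR adjusted p = 6.7e-05). let-7a-5p passed too (edgeR adjusted p = 0.0117), where its silenced THP-1 counts were all 1, but not with limma (adjusted p = 0.104). let-7d-5p did not pass (-1.06 ± 0.37, edgeR adjusted p = 0.0543), although it did under background scaling (-1.63 ± 0.49, edgeR adjusted p = 0.0203), with robust estimation (adjusted p = 0.0323, with 20.9% of probes called lower) and without silenced MOLM-14 sample 1 (-1.23, adjusted p = 0.024). Median subtraction also called it (-2.74, adjusted p = 0.00638), while the stricter filter (-0.50, adjusted p = 0.294) and leaving out scrambled THP-1 sample 2 (-0.59, adjusted p = 0.259) gave smaller values. let-7g-5p (-0.70, 95% interval -1.69 to 0.30) and let-7i-5p (-0.38, -1.25 to 0.48) did not pass. For let-7g-5p median subtraction gave -2.69 (edgeR adjusted p = 0.0156) and the stricter filter -0.12 (edgeR adjusted p = 0.865), so the size of its difference is not settled. Background scaling called 35.8% of the 67 probes lower, with a split of 2 higher and 24 lower against 4 and 12.

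Under the scrambled hairpin the lines differed for 1 of the 6 members, let-7b-5p, higher in THP-1, against 4.48% of the 67 probes called higher. Without the count filter the let-7b-5p call was lost, with a log2 difference of 1.56 (edgeR adjusted p = 0.053). let-7c-5p was at 156 ± 14.5 counts (SD, n = 3) in THP-1 and 89.3 ± 30.1 (n = 2) in MOLM-14, with no overlap of counts, and did not pass (0.56 ± 0.20, edgeR adjusted p = 0.101). It passed in a fit of only these groups (0.60, edgeR adjusted p = 0.0166), with scaling on the top 100 probes (0.65, edgeR adjusted p = 0.0321) and without silenced MOLM-14 sample 2 (0.56, edgeR adjusted p = 0.00283). let-7a-5p, let-7d-5p, let-7g-5p and let-7i-5p had overlapping counts in the scrambled lines and log2 differences between -0.42 and 0.23.

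Under the MUC1 hairpin 5 of the 6 tested members were lower in THP-1 than in MOLM-14, against 34.3% of the 67 probes called lower (46.3% under background scaling, with a split of 4 higher and 31 lower against 14 and 23). let-7b-5p (-1.29) and let-7c-5p (-1.88 ± 0.22, edgeR adjusted p = 3.51e-05) passed in all 26 alternatives. let-7a-5p passed as well (edgeR adjusted p = 0.00399), but not with the silenced THP-1 samples averaged (edgeR adjusted p = 0.0966). let-7d-5p (-0.86 ± 0.28, edgeR adjusted p = 0.023) and let-7g-5p (-1.12 ± 0.35, edgeR adjusted p = 0.0192) lost the call in 9 and 7 of 26 alternatives. Both lost it without silenced MOLM-14 sample 2 (-0.59 and -1.04), without scrambled THP-1 sample 1 (-0.63 and -0.88) and without scrambled THP-1 sample 2 (-0.63 and -0.88). let-7d-5p lost it also without silenced THP-1 sample 1 (-0.68) or scrambled THP-1 sample 3 (-0.63), and let-7g-5p without silenced THP-1 sample 3 (-0.90). let-7i-5p did not pass (-0.57 ± 0.31, edgeR adjusted p = 0.139), but did without silenced MOLM-14 sample 1 (-0.85, edgeR adjusted p = 0.025), under background scaling (-0.99, edgeR adjusted p = 0.043) and after median subtraction (-1.94, edgeR adjusted p = 0.0447).

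Counts of near-identical members were next set against each other within each sample, which does not depend on scaling between libraries. The ratio of let-7b-5p to let-7c-5p counts was 13.7, 14.1 and 12.7 in scrambled and 8.49, 6.86 and 11.3 in silenced MOLM-14. In THP-1 it was 24.2, 28.6 and 20.8 in scrambled and 13.3, 12.7 and 12.5 in silenced samples. The hairpin groups did not overlap in either line, and the 2 lines did not overlap under the scrambled hairpin. The log2 ratio differed between silenced and scrambled samples by -0.64 in MOLM-14 (exact two-sided permutation test, p = 0.2, the smallest possible with 3 against 2) and by -0.92 in THP-1 (exact p = 0.1, the smallest possible with 3 against 3). Adjusted over the 4 ratio tests made, both exact p-values were 0.4. In silenced THP-1 let-7c-5p lay at background, and when each library's median count was subtracted first the THP-1 difference turned to 1.24, so its direction there is not settled. In MOLM-14 subtraction gave -0.61. The ratio of let-7g-5p to let-7i-5p counts, was 1.31 ± 0.236 in scrambled (SD, n = 2) and 1.85 ± 0.713 in silenced MOLM-14 (n = 3). It was 1.2 ± 0.353 in scrambled and 1.11 ± 0.338 in silenced THP-1 (n = 3 each). The log2 differences of 0.45 and -0.13 were smaller than or close to the spread between samples (exact two-sided permutation tests, p = 0.4 and 0.8).

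**Figure D4:**
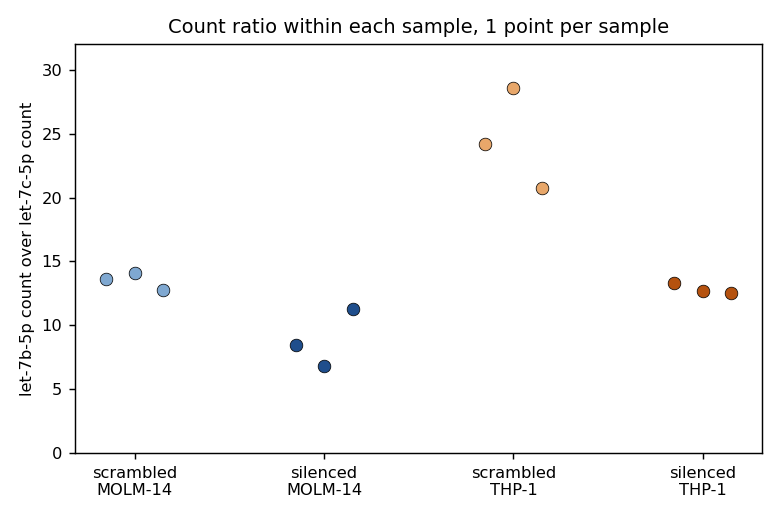
Count of let-7b-5p divided by the count of let-7c-5p within each sample (vertical axis from 0), 1 point per sample in the 4 groups. Silenced samples lie below scrambled samples in both lines, and let-7c-5p in silenced THP-1 is at background level.

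The other measured relatives were the miRNAs with the let-7 seed and those encoded beside let-7 genes. RefSeq lists 11 mature miRNAs with the let-7 seed, 10 of them on the panel, and the 2 that are not let-7 by name are shown for comparison.
miR-98-5p: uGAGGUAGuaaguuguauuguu
miR-4458: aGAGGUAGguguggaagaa
miR-98-5p, encoded 850 bases from let-7f-2 on the X chromosome, lay between 8 and 25 counts in the 12 samples, and miR-4458 between 5 and 15. Both were thus among the probes that make up the background set. Of 7 measured probes in this list of relatives, 2 passed the count filter, miR-125a-5p and miR-125b-5p, relatives of the worm miRNA lin-4. The first is encoded near let-7e, and the second, through MIR125B1, 46677 bases from let-7a-2. Neither passed in either hairpin comparison. miR-125a-5p, encoded 389 bases from let-7e, had 45.3 ± 4.16 counts in scrambled and 23.3 ± 2.08 in silenced THP-1 (SD, n = 3 each). Its log2 fold change was -0.19 ± 0.24 (edgeR adjusted p = 0.53) and -0.77 ± 0.27 under background scaling (edgeR adjusted p = 0.0316). miR-125b-5p gave 0.29 ± 0.20 in THP-1 (edgeR adjusted p = 0.341) and -0.35 ± 0.19 in MOLM-14 (edgeR adjusted p = 0.237). miR-99a-5p, encoded 658 bases from let-7c, lay between 9 and 20 counts, while let-7c-5p reached 170.

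Among the members the profiles over the 12 samples were compared by the root mean square difference of log2 TMM-scaled counts, each centred on its own mean. The closest pairs were let-7d-5p with let-7i-5p (0.391) and let-7g-5p with let-7i-5p (0.408), while let-7a-5p differed from each other tested member by 2.23 to 2.62, values set by its 4 samples at 1. The 5 other tested probes closest to let-7b-5p were miR-191-5p (0.471), miR-15b-5p (0.644), miR-92a-3p (0.799), miR-93-5p (0.846) and miR-223-3p (0.877). miR-191-5p was closer to let-7b-5p than any let-7 member, the nearest of which was let-7d-5p (0.538). miR-191-5p had 290 ± 47.0 counts in scrambled (SD, n = 2) and 118 ± 9.64 in silenced MOLM-14 (n = 3), then 441 ± 66.3 and 25.7 ± 1.15 in scrambled and silenced THP-1 (n = 3 each), the same order of groups as let-7b-5p. The closeness is a description of 12 samples in 4 groups that share library signal, and all 5 of these probes had silenced THP-1 means below 30 counts.

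**Figure D5:**
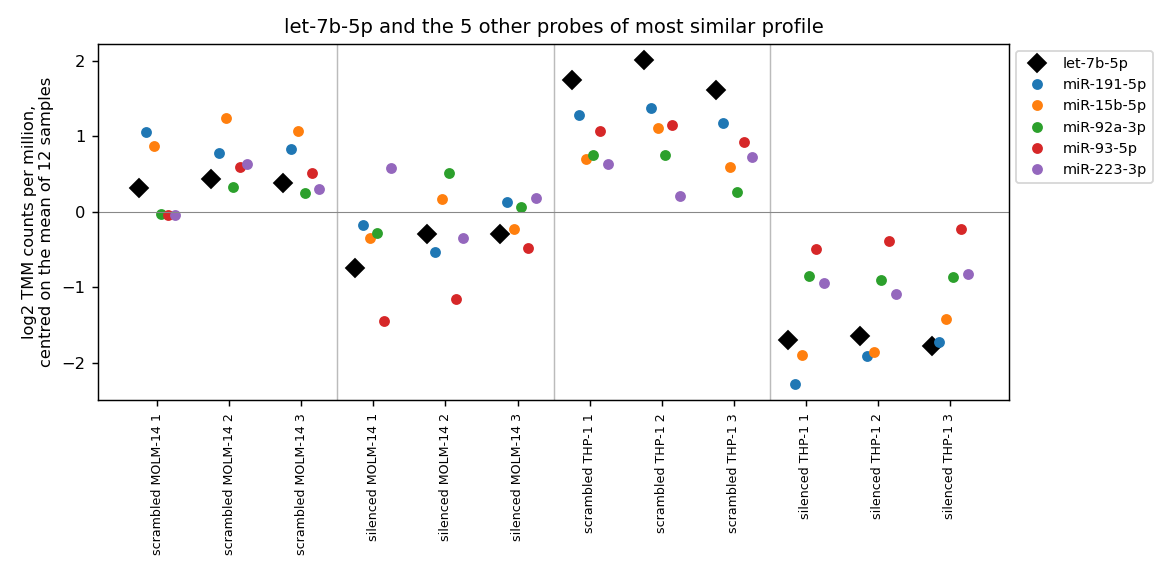
log2 TMM-scaled counts, centred on each probe's mean over the 12 samples (vertical axis), for let-7b-5p (black diamonds) and the 5 other tested probes of most similar profile (circles), 1 column per sample and vertical lines between groups. All 6 probes lie below their own mean in the 3 silenced THP-1 samples and above it in the 3 scrambled THP-1 samples.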

How the data were processed

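The deposited values are whole-number probe counts for 798 miRNA probes in 12 samples, used as the authors deposited them. Per the labels' protocols they come from a NanoString assay on total RNA. The sources used here do not give the counting software or any correction or scaling. No value was below 1. Members and lists were chosen with earlier results of these data known. The 67 probes that reached 30 counts in 3 samples or more entered a single quasi-likelihood fit with a mean per group (edgeR 4.0.16, R 4.3.3, TMM scaling), and p-values were adjusted by Benjamini-Hochberg over the 67, threshold 0.05. Fold changes are given with SEs. The fit was tested on simulated data. Alternatives were DESeq2 1.42.0, limma 3.58.1 on log2 counts with a pseudocount of 1, other scalings and filters, median subtraction, a replicate block, averaged samples, separate fits per comparison and omission of single samples, and, chosen after seeing the data, robust estimation of the spread. Named were the 8 members, probes sharing the seed, cluster neighbours and the 5 closest profiles to let-7b-5p. Titles, not source names, gave the groups: the source names of silenced MOLM-14 samples 1 to 3 read MUC1, MUC2 and MUC3. Correlations of deviations from group means did not settle whether same-numbered samples were pairs. In MOLM-14 they were 0.36, 0.406 and -0.219 for same numbers, against -0.443 to 0.304 for different numbers. In THP-1 they were 0.142, -0.405 and -0.229, against -0.25 to 0.418. Numbers were not taken as pairs in the main fit.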

Additional observations from a re-analysis of the deposited data

Results flagged for a closer look

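An interaction term (the THP-1 log2 effect less the MOLM-14 one) passed the test for 3 of the 6 tested members, with 17.9% of the 67 probes called lower. The difference was -2.71 for let-7b-5p and -2.44 for let-7c-5p, each called in all 25 alternatives run. The size for let-7c-5p is limited by background, which its silenced THP-1 counts of 12 to 18 did not exceed. For let-7a-5p the fitted difference was -6.90, a value set by counts of 1 in silenced THP-1 and not a size, and the call was lost with limma (adjusted p = 0.104) and with the silenced THP-1 samples averaged (edgeR adjusted p = 0.134).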

How the results depend on the processing

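In THP-1 the count of let-7 members called kept to within 1.5 times 6 in every alternative run, and was 6 without any 1 library. In MOLM-14 it was 3, but 1 without a count filter (0.627% of probes called lower, against 8.96%) and 3 to 5 without 1 library. The difference between the lines called 3, but 2 with limma (16.4% of probes called lower, against 17.9%), 5 after median subtraction (20.9%) and 3 to 4 without 1 library. Between the scrambled lines 1 member was called, 2 with top 100 scaling (5.97% of probes called higher, against 4.48%) or only the groups compared (11.9%), 0 without a count filter (edgeR, 60 of 798 probes at an unadjusted p under 0.05) and 1 to 2 without 1 library. Between the silenced lines 5 were called, with 34.3% of probes lower. They were 6 with background scaling (46.3%) or median subtraction (31.3%), 3 with top 100 scaling (25.4%) or the stricter filter (21.4%), 2 with the silenced THP-1 samples averaged (13.4%) and 3 to 6 without 1 library. The cause of these shifts was not tested. The replicate block, on numbers whose pairing is not settled, added let-7g-5p in MOLM-14 (-0.87, edgeR adjusted p = 0.0307) and let-7d-5p in the difference (-1.02, edgeR adjusted p = 0.0131). Of 774 fold changes of single members under alternatives, 4 changed sign, none of them called: let-7i-5p in the difference with the stricter filter (0.20) and without scrambled THP-1 replicate 2 (0.054, from -0.66 to 0.054 over single libraries left out), and, without that library, let-7a-5p (-0.13, from -0.13 to 0.43) and let-7d-5p (-0.039, from -0.039 to 0.29) between the scrambled lines. The silenced minus scrambled difference in the log2 ratio of let-7b-5p to let-7c-5p ranged from -0.83 to -0.47 without 1 library in MOLM-14. In THP-1 that difference ranged from -1.04 to -0.81, and median subtraction turned it to 1.24. The same difference for let-7g-5p to let-7i-5p ranged from 0.15 to 0.62 in MOLM-14 and from -0.28 to 0.16 in THP-1. It was 0.16 without silenced THP-1 replicate 3 and 0.10 without scrambled THP-1 replicate 1. Depth limits let-7e-5p, let-7f-5p and all silenced THP-1 values but those of let-7b-5p.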
